A study of Homo sapiens with 12 samples.

Results

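Matrix metalloproteinases (MMPs) are zinc-dependent enzymes that cleave proteins of the extracellular matrix, and TIMPs (tissue inhibitors of metalloproteinases) are the small proteins that bind and block them. The 9 genes described here, MMP1, MMP2, MMP3, MMP13, MMP14, MMP16, TIMP1, TIMP2 and TIMP3, were chosen by name for their function. Earlier results of these data were known when that choice was made. These genes are 9 of the 26464 gene symbols used, and all 9 were among the 15683 genes with enough fragments to be tested. Their values were compared in PC3 cells, a human line from a prostate adenocarcinoma, and MG63 cells, a human line from an osteosarcoma, both with the genotype given as WT. The siRNAs were siLARP4A, which targets LARP4A, siLARP4B, which targets LARP4B, and siControl, which has no target. Cells received 10 nM of one of them in the lipid reagent Lipofectamine RNAiMAX, and poly(A) RNA was sequenced 72 h later. LARP4A, listed under the symbol LARP4, and LARP4B are related RNA-binding proteins, and the series title concerns their part in tumour growth and metastasis. Each of the 6 groups has 2 libraries, which the series design calls biological replicates. The siControl libraries of a line serve both of its siRNA comparisons, so these are not independent of each other.

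MMPs are made as inactive precursors, and most are secreted, while MMP14 and MMP16 stay anchored in the cell membrane. MMP14 on the cell surface, with TIMP2 as a bridge, cuts the precursor of MMP2 into its active form, and MMP3 can activate the precursors of collagenases. Tumour cells use these enzymes to pass through basement membrane and stroma, and in bone they take part in matrix turnover. RNA levels do not report the active fraction of any of these enzymes.

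The catalytic site that the MMPs share is shown because it is what makes them a family: 3 histidines hold the zinc ion. The coding stretch of 33 bases around it was read from GENCODE release 29 (GRCh38), 5′ to 3′, with the 3 histidine codons in capitals.
MMP1: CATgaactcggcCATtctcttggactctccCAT
MMP13: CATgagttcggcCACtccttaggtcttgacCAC
MMP3: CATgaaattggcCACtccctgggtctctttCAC
MMP2: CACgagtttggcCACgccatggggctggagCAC
MMP14: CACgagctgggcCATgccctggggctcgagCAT
The 5 sequences share 18 (MMP1 and MMP2) to 27 (MMP2 and MMP14) of the 33 bases in pairs. In the TIMPs, the amino-terminal stretch of the mature protein enters that active site. Its first 42 bases are given from the same source, with cysteine codons in capitals.
TIMP1: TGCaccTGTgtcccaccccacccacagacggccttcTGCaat
TIMP2: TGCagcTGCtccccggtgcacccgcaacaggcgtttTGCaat
TIMP3: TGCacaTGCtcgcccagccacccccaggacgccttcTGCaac
Pairs of these TIMP stretches are identical at 28 or 29 of 42 bases.

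Library totals were 16950119 to 24864977 fragments. The targeted genes checked the labels: LARP4 was at 12.7% of its siControl level in PC3 and 25.8% in MG63 after siLARP4A, and LARP4B was at 18.4% and 30.9% after siLARP4B. The gene not targeted also moved in MG63, where LARP4 rose to 134% after siLARP4B, against 98.0% in PC3. LARP4B was at 97.3% in PC3 and 104% in MG63 after siLARP4A. The replicates of PC3 siLARP4A and MG63 siLARP4B differed most, with chi-square values per degree of freedom of 6.04 and 4.80 against 1.61 to 2.499 in the other 4 groups. PC3 had summed FPKM of 852 to 868 over its prostate epithelial markers in siControl, carried by the keratins KRT8, KRT18 and KRT19, while the defining prostate gene KLK3 had 0 to 1 fragments in all 6 PC3 libraries. MG63 had 1209 to 1228 over the osteoblast markers, mostly COL1A1 and COL1A2, with SPP1 at 0, IBSP at 0 to 1 and SP7 at 0 to 4 fragments in all 6 MG63 libraries. Of the 3 leukocyte markers used, the T cell gene CD3E had 0 fragments in all 12 libraries and CD68, a lysosomal protein of macrophages, carried most of the sum. That sum was 15.5 to 16.2 FPKM in PC3 siControl, 18.7 to 21.0 after siLARP4A and 12.3 after siLARP4B. In MG63 it was 30.2 to 32.5, 21.5 to 22.3 and 15.2 to 15.5 in the same order, and both tested markers, CD68 and CD14, fell after siLARP4B. The 3 endothelial markers summed to 0.16 to 0.33 FPKM in PC3, and in MG63 to 3.77 to 4.08 in siControl, 5.97 to 6.83 after siLARP4A and 2.25 to 2.63 after siLARP4B. The osteoblast sum was 1937 to 2004 in MG63 siLARP4A and 1106 to 1228 in siLARP4B, and the prostate epithelial sum was 994 to 1042 in PC3 siLARP4A and 796 to 822 in siLARP4B. The part of these shifts in the results was not tested.

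The lines differed in which MMPs and TIMPs they expressed at rest. Levels are given as FPKM, fragments per kilobase of the gene model scaled to the library total, which allows genes to be compared with each other. In MG63 siControl the order was MMP2 (496 ± 18.8 FPKM, SD, n = 2), TIMP2 (198 ± 0.361), TIMP1 (163 ± 0.996), MMP14 (97.1 ± 0.957), MMP3 (67.2 ± 4.95), MMP1 (12.5 ± 0.957), TIMP3 (8.10 ± 0.603), MMP16 (0.752 ± 0.00551) and MMP13 (0.0391). In PC3 siControl it was TIMP1 (273 ± 7.33), TIMP2 (64.6 ± 0.0852), MMP14 (37.4 ± 2.60), MMP1 (13.6 ± 0.915), MMP13 (5.22 ± 0.00900), MMP16 (3.46 ± 0.234), MMP3 (0.281), TIMP3 (0.200) and MMP2 (0.0378). No neighbouring pair in the MG63 order, and none of the first 6 in PC3, overlapped between libraries. MMP2, the gelatinase, ranked 96 of 26464 genes by FPKM in MG63 and TIMP1 ranked 193 in PC3.

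Of the 9 genes, 8 differed between PC3 and MG63 siControl (edgeR quasi-likelihood test, Benjamini-Hochberg adjusted p under 0.05), where 82% of all tested genes did. The exception was MMP1, with a log2 difference of -0.06 (SE 0.096, adjusted p = 0.58). Where a gene had few fragments in 1 of the lines, the ratio of its summed fragments, scaled to the library totals, is given with a 95% counting interval. MMP2 had 64840 fragments in MG63 siControl against 5 in PC3, a ratio of 12904 (5529 to 39744). MMP3 had 4545 against 19, a ratio of 238 (152 to 396), and TIMP3 had 1386 against 34, a ratio of 40.6 (28.9 to 58.8). MMP13 went the other way, with 524 fragments in PC3 against 4 in MG63 and a ratio of 132 (51.1 to 485). These intervals cover counting error only. MMP16 was at 404% of its MG63 level in PC3 (log2 2.02, SE 0.11, adjusted p = 5.6e-14), MMP14 at 33.9% (log2 -1.56, SE 0.058) and TIMP2 at 28.7% (log2 -1.80, SE 0.045). The 6 MMPs summed to 60.1 FPKM in PC3 siControl and 673 in MG63, while the 3 TIMPs summed to 337 and 369. MMP14 made up 62.3% of the MMP sum in PC3, and MMP2 made up 73.6% of it in MG63.

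**Figure D1:**
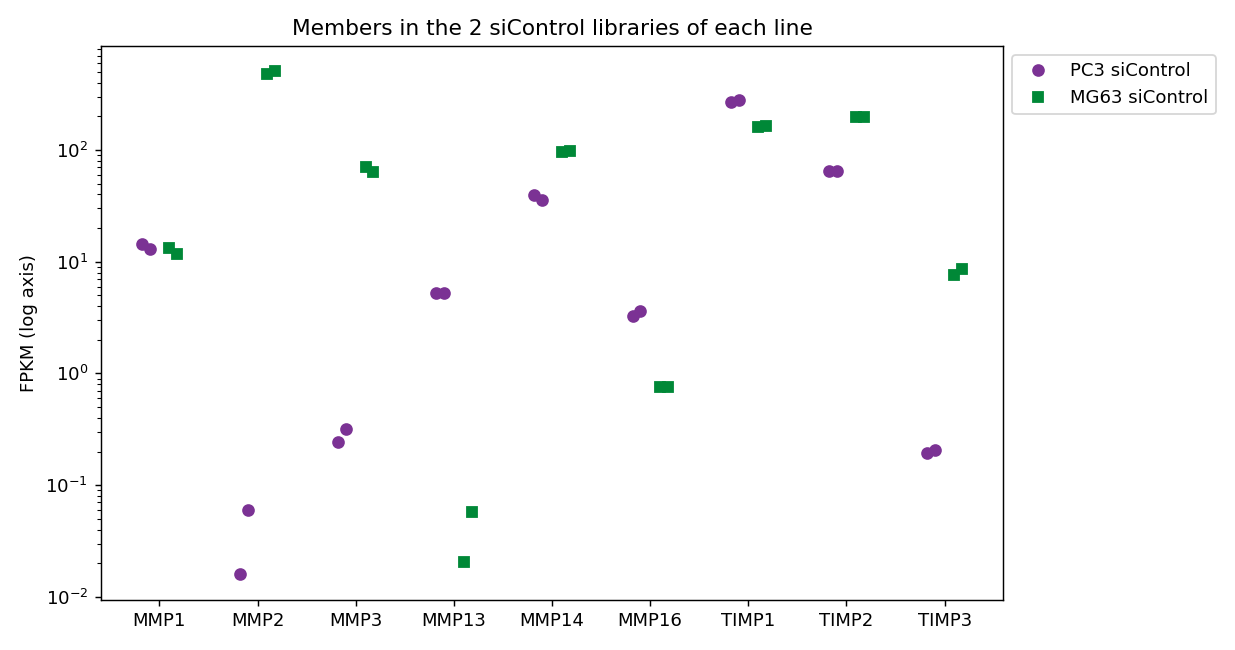
FPKM (log axis) of the 9 genes in the 2 siControl libraries of PC3 (circles) and of MG63 (squares), 1 point per library. MMP1 lies at 11.8 to 14.3 FPKM in all 4 libraries, whereas MMP2, MMP3, TIMP3 and MMP13 lie far apart between the lines.

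The secreted collagenases MMP1 and MMP13 and stromelysin 1 were lower after both siRNAs in each line where they exceeded 5 FPKM in siControl. MMP1, the interstitial collagenase, fell after both siRNAs in both lines. MMP3 (stromelysin 1) fell after both in MG63, and MMP13 (collagenase 3) fell after both in PC3. In these bulk RNA samples, fewer cells that express a gene and less of its RNA per cell cannot be told apart. The 3 genes lie close together on the minus strand of chromosome 11 (hg38): MMP1 at chr11:102789919-102798160, MMP3 at chr11:102835801-102843609 and MMP13 at chr11:102942995-102955732.

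MMP1 in MG63 stood at 13.2 and 11.8 FPKM in the siControl libraries, 4.27 and 4.02 after siLARP4A, and 8.73 and 9.31 after siLARP4B. The 3 groups did not overlap, with siLARP4A lowest. By the edgeR test MMP1 fell to 33.2% of siControl after siLARP4A (log2 -1.59, SE 0.12, adjusted p = 1.2e-09) and to 73.1% after siLARP4B (log2 -0.45, SE 0.10, adjusted p = 0.0013). In PC3, MMP1 stood at 14.3 and 13 FPKM in siControl, 11.3 and 9.25 after siLARP4A, and 7.12 and 7.33 after siLARP4B. Here siLARP4B was lowest, again with no overlap between groups. MMP1 fell to 52.8% after siLARP4B (log2 -0.92, SE 0.10, adjusted p = 2.4e-07) and to 76.99% after siLARP4A (log2 -0.38, SE 0.097, adjusted p = 0.0037). The PC3 siLARP4A call on MMP1 was lost without siControl replicate 1 (log2 -0.30, adjusted p = 0.067) and without siLARP4A replicate 2 (log2 -0.25, adjusted p = 0.056). MMP1 lies inside WTAPP1 on the opposite strand, which had 8 to 25 fragments per library against 147 to 556 for MMP1, and how strand was used in counting is not given in the sources used here.

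The order of the siRNAs for MMP1 was thus opposite in the 2 lines, and this was tested directly. The siLARP4A change in PC3 minus that in MG63 was 1.22 on the log2 scale (SE 0.15, adjusted p = 1.4e-05), and the siLARP4B difference was -0.47 (SE 0.15, adjusted p = 0.021). Between the siRNAs, MMP1 was lower with siLARP4A than with siLARP4B in MG63 (log2 -1.14, SE 0.12, adjusted p = 9.8e-08) and higher with siLARP4A in PC3 (log2 0.54, SE 0.11, adjusted p = 0.00016).

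MMP3, which cleaves proteoglycans, laminin and fibronectin, was at 70.7 and 63.7 FPKM in MG63 siControl, 14.1 and 14.7 after siLARP4A, and 23.4 and 22.6 after siLARP4B. All 4 siRNA libraries were below both controls. MMP3 fell to 21.5% of siControl after siLARP4A (log2 -2.22, SE 0.071, adjusted p = 4.4e-15) and to 34.7% after siLARP4B (log2 -1.53, SE 0.067, adjusted p = 2.8e-13), and was lower with siLARP4A than with siLARP4B (log2 -0.69, SE 0.076, adjusted p = 1.8e-07). Its rank by siControl FPKM in MG63 was 971 of 26464. In PC3, MMP3 had 8 and 11 fragments in siControl, 10 and 11 after siLARP4A, and 8 and 8 after siLARP4B, too few to show a change of moderate size. The ratio to siControl was 0.933 (95% counting interval 0.478 to 1.83) after siLARP4A and 0.863 (0.415 to 1.77) after siLARP4B. The interaction test called MMP3 for siLARP4A (log2 2.14, SE 0.43, adjusted p = 0.0021), under every alternative run.

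MMP13, which cleaves the collagen of cartilage and bone, was at 5.21 and 5.22 FPKM in PC3 siControl (254 and 270 fragments), 2.12 and 1.77 after siLARP4A (143 and 91), and 1.65 and 2.00 after siLARP4B (86 and 92). Both siRNA groups were below siControl and overlapped each other. MMP13 fell to 38.0% after siLARP4A (log2 -1.39, SE 0.15, adjusted p = 2.5e-07) and to 34.8% after siLARP4B (log2 -1.52, SE 0.15, adjusted p = 7.2e-08). The difference between the siRNAs did not pass the test (log2 0.13, adjusted p = 0.56). In MG63, MMP13 had 1 and 3 fragments in siControl, 0 and 1 after siLARP4A, and 0 and 0 after siLARP4B, so no fold is given.

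**Figure D2:**
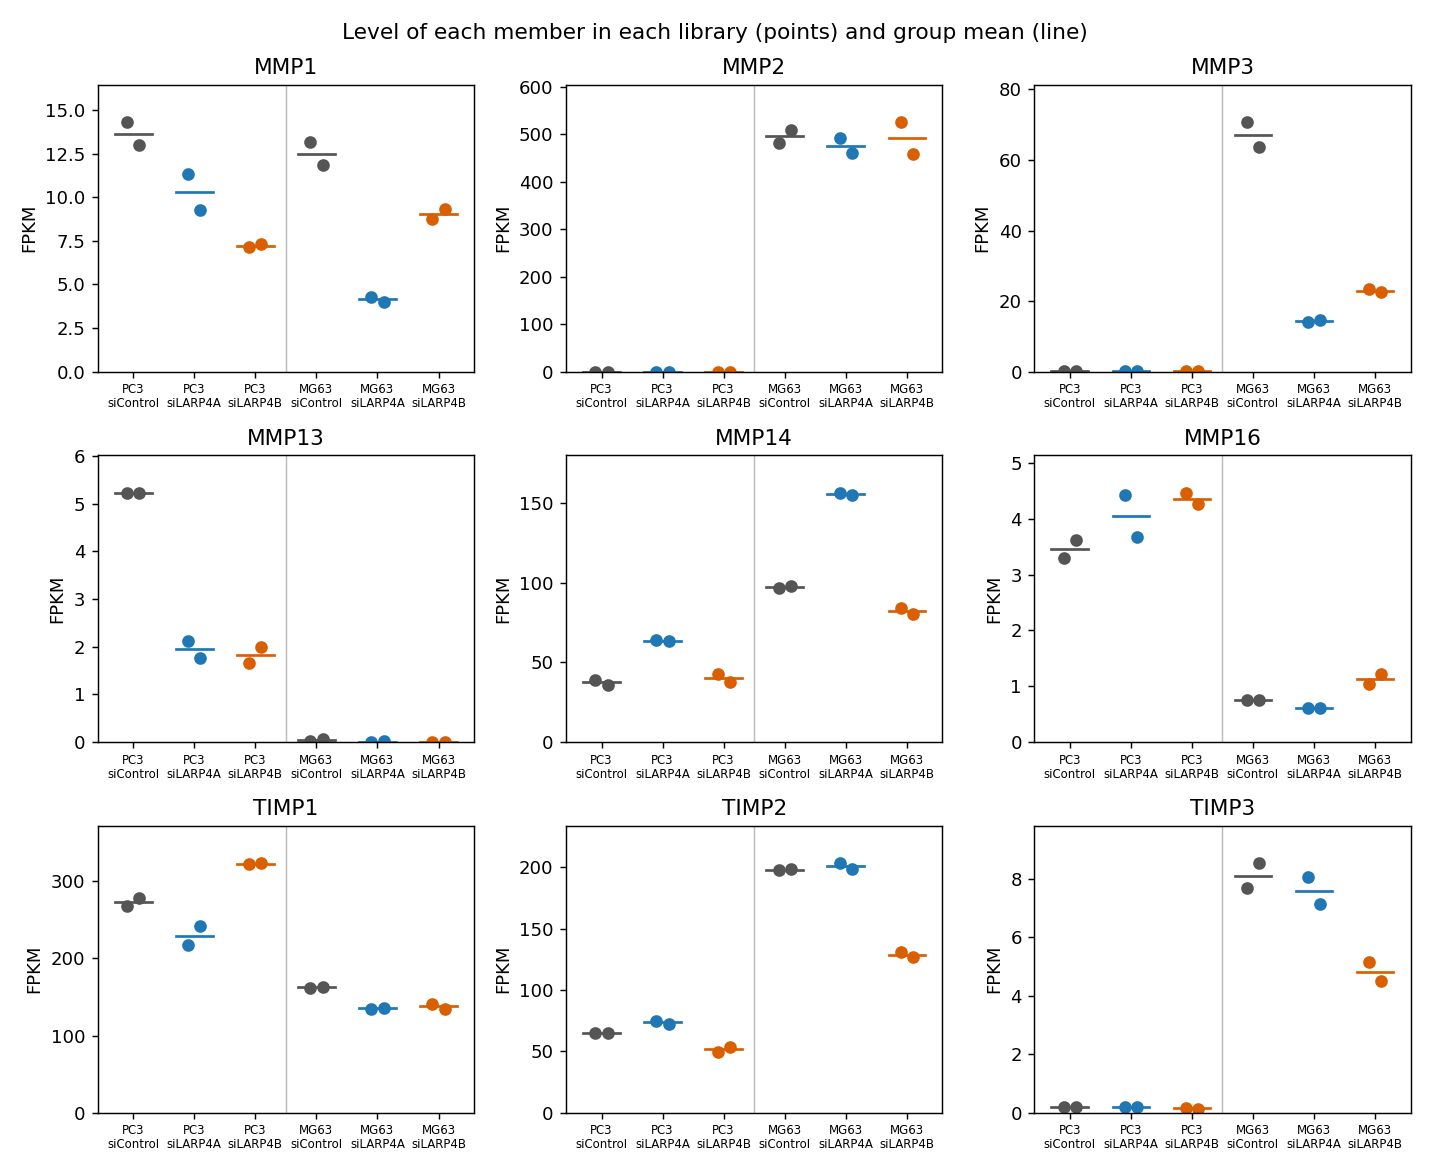
FPKM of each gene in the 12 libraries, with a panel per gene, points for libraries and a line at the mean of each group of 2; each axis starts at 0 and has its own scale. MMP3 in MG63 drops from above 60 FPKM to under 25 after either siRNA, and MMP14 is highest after siLARP4A in both lines.

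MMP2, gelatinase A, which cleaves denatured collagen and basement membrane collagen, was not called in MG63 (chr16:55479198-55506691). Its levels were 483 and 509 FPKM in siControl, 493 and 460 after siLARP4A, and 525 and 459 after siLARP4B. The 3 groups overlapped. The log2 change was -0.06 (95% interval -0.18 to 0.06, adjusted p = 0.54) after siLARP4A and 0.01 (-0.11 to 0.13, adjusted p = 0.96) after siLARP4B. In PC3, MMP2 had 1 and 4 fragments in siControl, 13 and 2 after siLARP4A, and 9 and 10 after siLARP4B. Scaled to the library totals, siLARP4B gave 3.89 times siControl (95% counting interval 1.41 to 13.3), from 19 against 5 fragments, and siLARP4A gave 2.53 times (0.875 to 8.91). The edgeR test passed for MMP2 after siLARP4B in PC3 (adjusted p = 0.026), not after siLARP4A (adjusted p = 0.17), which passed without siLARP4A replicate 2 (log2 1.92, adjusted p = 0.029). The siLARP4B call on MMP2 was lost without siControl replicate 1 (log2 1.30, adjusted p = 0.18) and without siLARP4B replicate 2 (log2 1.74, adjusted p = 0.10), and its level was at most 0.17 FPKM.

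The membrane-type MMPs went in other directions. MMP14 (MT1-MMP, chr14:22836585-22847758), a collagenase of the cell surface and the activator of MMP2, rose after siLARP4A in both lines. In PC3 it was at 39.3 and 35.6 FPKM in siControl, 64.1 and 63.2 after siLARP4A, and 42.7 and 37.4 after siLARP4B. In MG63 it was at 96.4 and 97.8, 156 and 155, and 84.3 and 80.3 FPKM in the same order. Both siLARP4A libraries of each line were above all 4 others of that line. MMP14 rose to 172% of siControl in PC3 (log2 0.78, SE 0.057, adjusted p = 6.6e-10) and 160% in MG63 (log2 0.68, SE 0.055, adjusted p = 5.2e-09), and the difference between the lines did not pass the test (log2 0.10, adjusted p = 0.47).

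After siLARP4B, MMP14 fell to 85.8% of siControl in MG63 (log2 -0.22, SE 0.055, adjusted p = 0.0033). In PC3 the siLARP4B and siControl libraries overlapped and MMP14 was not called (log2 0.10, SE 0.059, adjusted p = 0.19). That PC3 result passed the test without siControl replicate 1 (log2 0.17, adjusted p = 0.047) and without siLARP4B replicate 2 (log2 0.18, adjusted p = 0.034). Set against each other, siLARP4A gave more MMP14 than siLARP4B in PC3 (log2 0.69, SE 0.057, adjusted p = 1.2e-09) and in MG63 (log2 0.90, SE 0.055, adjusted p = 2.4e-11).

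The 250 bases before the MMP14 start, from RefSeq on GRCh38.p14 (chr14:22836335-22836584, plus strand), are shown because MMP14 and TIMP1 are the 2 genes called after siLARP4A in both lines for which a promoter was given, with opposite directions. Capitals mark GC boxes (GGGCGG on either strand), the sites that SP1-family factors bind.
MMP14: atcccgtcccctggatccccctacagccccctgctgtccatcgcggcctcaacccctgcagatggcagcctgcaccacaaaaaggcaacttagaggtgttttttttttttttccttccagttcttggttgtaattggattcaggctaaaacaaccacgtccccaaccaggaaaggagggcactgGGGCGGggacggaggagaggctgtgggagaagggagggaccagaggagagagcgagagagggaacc
TIMP1: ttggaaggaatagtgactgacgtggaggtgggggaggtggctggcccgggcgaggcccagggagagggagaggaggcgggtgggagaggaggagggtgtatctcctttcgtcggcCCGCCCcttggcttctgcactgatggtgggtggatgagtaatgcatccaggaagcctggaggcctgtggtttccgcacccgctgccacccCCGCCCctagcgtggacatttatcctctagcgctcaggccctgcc
The TIMP1 stretch is chrX:47582186-47582435, plus strand. MMP14 holds 1 GC box and TIMP1 holds 2, and 42.6% of 35116 promoter windows of this length hold at least 1. Neither holds an exact match to the AP-1 motif TGANTCA, which 6.57% of windows hold on either strand. TATAAA, searched on the plus strand only, is also absent from both, and 6.80% of windows hold it. TIMP1 does hold tgagtaa, which differs from TGANTCA in its second-last base. Near matches were not searched, so other forms of an AP-1 site were not covered. The TIMP3 window (chr22:32801455-32801704) holds 5 GC boxes and no exact match to either other motif. MMP1, MMP2, MMP3, MMP13, MMP16 and TIMP2 were not matched.

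MMP16 (MT3-MMP), the other membrane-anchored enzyme, was low in both lines. In MG63 it had 158 and 165 fragments in siControl, 122 and 131 after siLARP4A, and 237 and 265 after siLARP4B. The siLARP4B libraries were the highest of the 6. MMP16 rose to 152% of siControl after siLARP4B (log2 0.61, SE 0.12, adjusted p = 0.00058) and was not called after siLARP4A (log2 -0.31, SE 0.14, adjusted p = 0.12). In PC3, MMP16 was at 3.29 and 3.62 FPKM in siControl, 4.43 and 3.68 after siLARP4A, and 4.46 and 4.26 after siLARP4B. All 4 siRNA libraries were above siControl, by a narrow margin for siLARP4A replicate 2. MMP16 rose after siLARP4B (log2 0.33, SE 0.084, adjusted p = 0.0025) and after siLARP4A (log2 0.25, SE 0.083, adjusted p = 0.021). The PC3 siLARP4A call on MMP16 was lost in 5 of 11 alternatives (log2 0.10 to 0.37, adjusted p 0.00059 to 0.41), among them without siControl replicate 1 (log2 0.19) and without siLARP4A replicate 1 (log2 0.10).

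**Figure D3:**
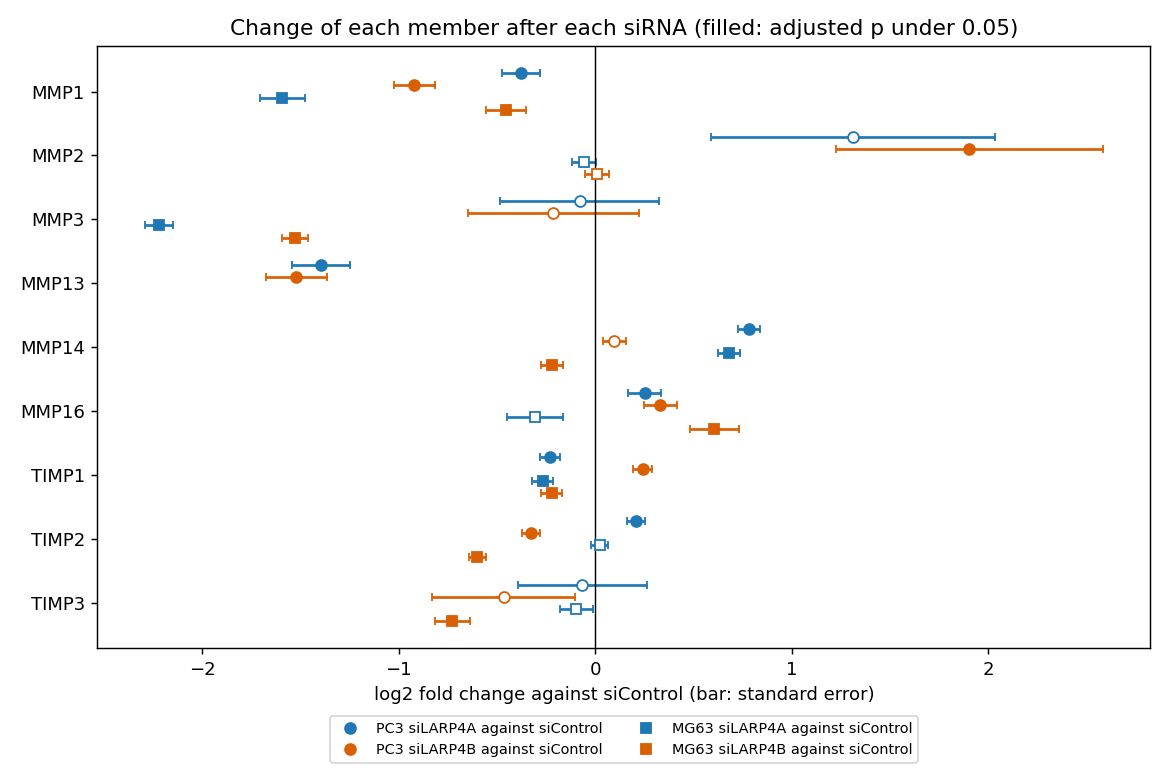
Log2 fold change of each gene against siControl, with bars for the standard error; circles are PC3, squares MG63, blue siLARP4A and orange siLARP4B, filled where the edgeR adjusted p was under 0.05. MMP13 in MG63 is left out because it had 0 to 3 fragments per library. MMP1 lies below 0 in all 4 comparisons, and MMP14 lies at 0.78 and 0.68 after siLARP4A.

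Of the inhibitors, TIMP2 fell after siLARP4B in both lines and TIMP3 in MG63, while TIMP1 rose in PC3 and fell in MG63 with that siRNA. TIMP1 (chrX:47582436-47586789), a secreted inhibitor of most soluble MMPs, was at 267 and 278 FPKM in PC3 siControl, 218 and 242 after siLARP4A, and 323 and 323 after siLARP4B. The 3 PC3 groups did not overlap. TIMP1 fell to 85.2% after siLARP4A (log2 -0.23, SE 0.051, adjusted p = 0.00096) and rose to 118% after siLARP4B (log2 0.24, SE 0.050, adjusted p = 0.00043). In MG63, TIMP1 was at 162 and 163 FPKM in siControl, 134 and 136 after siLARP4A, and 141 and 135 after siLARP4B. Both siRNA groups were below siControl there and overlapped each other, with TIMP1 at 83.1% (log2 -0.27, SE 0.054, adjusted p = 0.00067) and 85.8% (log2 -0.22, SE 0.053, adjusted p = 0.0026). The siLARP4B change differed between the lines by 0.46 (SE 0.073, adjusted p = 6.7e-05), and the siLARP4A change did not pass that test (0.04, adjusted p = 0.84).

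TIMP2 (chr17:78852977-78925387), the inhibitor that also links MMP14 to the MMP2 precursor, was at 198 and 198 FPKM in MG63 siControl, 203 and 199 after siLARP4A, and 131 and 126 after siLARP4B. The siLARP4B libraries were far below the other 4. TIMP2 fell to 65.9% after siLARP4B (log2 -0.60, SE 0.044, adjusted p = 6.9e-10) and was not called after siLARP4A (log2 0.02, 95% interval -0.06 to 0.11, adjusted p = 0.76). In PC3 it was at 64.5 and 64.6 FPKM in siControl, 74.7 and 72.6 after siLARP4A, and 49.7 and 53.6 after siLARP4B. None of the 3 PC3 groups overlapped. TIMP2 fell to 79.8% after siLARP4B (log2 -0.33, SE 0.046, adjusted p = 4.3e-06) and rose to 115% after siLARP4A (log2 0.21, SE 0.045, adjusted p = 0.00086). The siLARP4B fall was larger in MG63 (difference 0.27, SE 0.063, adjusted p = 0.0024). Of the 50-base windows in the TIMP2 model, 13.02% occur in CEP295NL or AC022966.1 too. CEP295NL lies within TIMP2 on the same strand and had 0 to 3 fragments per library.

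TIMP3 (chr22:32801705-32863041), the inhibitor that binds to the matrix and also blocks several ADAM proteases, was at 7.67 and 8.52 FPKM in MG63 siControl, 8.04 and 7.12 after siLARP4A, and 5.15 and 4.50 after siLARP4B. The siLARP4B libraries were below the other 4, which overlapped. TIMP3 fell to 60.3% after siLARP4B (log2 -0.73, SE 0.089, adjusted p = 1.4e-06) and was not called after siLARP4A (log2 -0.10, SE 0.085, adjusted p = 0.45). In PC3, TIMP3 had 16 and 18 fragments in siControl, 22 and 16 after siLARP4A, and 14 and 10 after siLARP4B. The ratios to siControl were 0.944 (95% counting interval 0.578 to 1.55) and 0.723 (0.410 to 1.26), so a change was not detectable at this depth. TIMP3 lies inside SYN3 on the opposite strand, which had 11 to 32 fragments in MG63 and 3 to 5 in PC3.

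Counted over the 9 genes, siLARP4A in PC3 left 3 higher (MMP14, MMP16 and TIMP2) and 3 lower (MMP1, MMP13 and TIMP1), where 36.4% of all tested genes were called, 19.5% as higher and 16.9% as lower. In PC3 siLARP4B the count was also 3 higher (MMP2, MMP16 and TIMP1) and 3 lower (MMP1, MMP13 and TIMP2), beside 45.7% of all genes called, 24.8% higher and 20.9% lower. MG63 siLARP4A gave 1 higher (MMP14) and 3 lower (MMP1, MMP3 and TIMP1), beside 26.8% called, 13.3% higher and 13.5% lower. MG63 siLARP4B gave 1 higher (MMP16) and 6 lower (MMP1, MMP3, MMP14, TIMP1, TIMP2 and TIMP3), where 34.9% of all genes were called, 18% higher and 16.9% lower. The median log2 change of the 9 genes was -0.45 in that comparison against -0.00 over all genes, and -0.27 against -0.00 after siLARP4A in MG63. In PC3 the medians were -0.07 against 0.03 after siLARP4A and -0.21 against 0.04 after siLARP4B. Between the siRNAs, 4 of the 9 genes differed in PC3, beside 54.1% of all genes, and 6 in MG63, beside 43.8%. Between the lines, 3 genes differed in the siLARP4A change, beside 11.2% of all genes, and 6 in the siLARP4B change, beside 26.8%.

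These changes altered which MMPs made up the summed MMP level. In PC3, MMP14 went from 62.3% of the MMP sum in siControl to 79.3% after siLARP4A and 74.3% after siLARP4B, and MMP1 from 22.7% to 12.8% and 13.5%. In MG63, MMP3 went from 9.98% to 2.22% and 3.79%, and MMP14 from 14.4% to 23.9% after siLARP4A and 13.6% after siLARP4B. The 3 TIMPs in MG63 summed to 369 FPKM in siControl, 344 after siLARP4A and 271 after siLARP4B. The MMP sum divided by the TIMP sum was 1.81 and 1.85 in the MG63 siControl libraries, 1.94 and 1.85 after siLARP4A, and 2.32 and 2.15 after siLARP4B. In PC3 it was 0.188 and 0.169 in siControl, 0.282 and 0.249 after siLARP4A, and 0.151 and 0.136 after siLARP4B. These sums are descriptions and carry no test. They leave out the further MMPs, so the shares and ratios hold for these 6 MMPs only. MMP17, at 6.14 FPKM in PC3 siControl, was above MMP13 (5.22) and MMP16 (3.46) there. It rose after siLARP4A (log2 0.82) and siLARP4B (log2 1.08). Of the 6 further MMPs tested, 3 were higher and 1 lower after siLARP4B in PC3. Shares with the further MMPs included were not computed.

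The other genes of the pathway were counted by the same edgeR test, from lists chosen for their known roles. Over all tested genes, PC3 had 36.4% called after siLARP4A (19.5% higher, 16.9% lower) and 45.7% after siLARP4B (24.8% and 20.9%). In MG63 the shares were 26.8% (13.3% and 13.5%) and 34.9% (18% and 16.9%). No list was tested as a set against these shares. Where 5 or fewer genes of a list were called in a direction, they are named in most cases, and those below 5 FPKM or past the 3 largest changes were named after their values were seen. Of 17 further MMPs only 6 could be tested. MMP17, a membrane-bound MMP held by a lipid anchor, rose in PC3 from 6.14 ± 0.429 FPKM to 10.8 ± 1.77 after siLARP4A (log2 0.82, adjusted p = 2.4e-06) and 13 ± 0.0430 after siLARP4B (log2 1.08, adjusted p = 2.3e-08). It was the 1 further MMP called after siLARP4A in PC3, whereas siLARP4B there gave 3 higher (MMP15, MMP17 and MMP19) and 1 lower (MMP10). In MG63, none of the 6 was called after siLARP4A and 1, MMP15, fell after siLARP4B, from 10.3 ± 0.103 to 7.55 ± 0.366 FPKM (log2 -0.44, adjusted p = 0.00043).

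Of 7 further genes listed as inhibitors of matrix proteolysis, among them PCOLCE, by name a procollagen C-endopeptidase enhancer, 6 were tested. RECK, a membrane-anchored inhibitor of MMP2, MMP9 and MMP14, fell in MG63 from 34.0 ± 0.332 FPKM to 14 ± 0.937 after siLARP4A (log2 -1.28, adjusted p = 2.4e-12) and 22.9 ± 1.49 after siLARP4B (log2 -0.55, adjusted p = 2.4e-07). TFPI2, a serine protease inhibitor of the matrix, fell in PC3 from 20.0 ± 0.430 FPKM to 12.1 ± 1.23 after siLARP4A (log2 -0.70) and 16.6 ± 0.194 after siLARP4B (log2 -0.27). The genes of this list were split in direction, with 3 higher (PCOLCE, SPOCK3 and TIMP4) and 3 lower (RECK, SPOCK1 and TFPI2) after siLARP4A in PC3. After siLARP4B in PC3, PCOLCE, SPOCK3 and TIMP4 were again higher, and RECK and TFPI2 lower. In MG63, SPOCK1 and SPOCK3 were higher and RECK and TFPI2 lower after siLARP4A, and none was higher and 2 (RECK and SPOCK1) were lower after siLARP4B. TIMP4, a TIMP best known from heart, changed by 0.75 and 1.03 on the log2 scale in PC3.

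In the list of precursor activators and surface docking proteins 15 of 16 genes were tested. After siLARP4A, 7 were higher and 5 lower (BSG, CAV1, CD44, ITGAV and PLAT) in PC3, and 8 higher and 2 lower (BSG and CAV1) in MG63. After siLARP4B 6 were higher and 2 lower in PC3, and 3 higher (CAV1, FURIN and PLAU) and 2 lower in MG63. PLAU, the urokinase-type plasminogen activator, rose in MG63 siLARP4A from 228 ± 5.31 to 411 ± 0.588 FPKM (log2 0.85). PLAT, the tissue-type activator, fell in PC3 siLARP4A from 44.1 ± 0.891 to 17.5 ± 1.11 (log2 -1.32). FURIN, the convertase that activates membrane-type MMPs, rose in MG63 siLARP4B from 16.8 ± 0.689 to 27.2 ± 1.91 FPKM (log2 0.71, adjusted p = 7.2e-09).

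Among the adamalysins, the related ADAM and ADAMTS proteases, 14 of 17 were tested. After siLARP4A 6 were higher and 1 lower (ADAM15) in PC3, and 5 higher (ADAM12, ADAM19, ADAMTS4, ADAMTS6 and ADAMTS15) and 5 lower (ADAM15, ADAM33, ADAMTS1, ADAMTS5 and ADAMTS9) in MG63. ADAM19 rose after siLARP4A in both lines (log2 0.77 in PC3 and 0.65 in MG63). After siLARP4B 3 were higher (ADAM15, ADAM33 and ADAMTS15) and 1 lower (ADAM10) in PC3, and 1 higher (ADAMTS15) and 4 lower (ADAM10, ADAM12, ADAM33 and ADAMTS2) in MG63. ADAM10, a major sheddase of membrane proteins, fell after siLARP4B in both lines, from 6.28 ± 0.0204 to 2.88 ± 0.0521 FPKM in PC3 (log2 -1.13) and from 19.02 ± 0.481 to 11.1 ± 0.194 in MG63 (log2 -0.76).

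Matrix substrates were mostly higher after siLARP4A, with 12 higher and 5 lower (BGN, COL1A2, HSPG2, SPARC and THBS1) of 19 tested in PC3 and 13 higher and 1 lower (COL3A1) in MG63. Their median log2 changes were 0.39 and 0.32, against 0.03 and -0.00 over all genes. COL1A1, a chain of the collagen that MMP1, MMP13 and MMP14 cleave, rose from 2.43 ± 0.0610 to 8.25 ± 0.915 FPKM in PC3 (log2 1.78) and from 745 ± 0.764 to 1316 ± 29.8 in MG63 (log2 0.82). After siLARP4B the substrates had 6 higher and 6 lower in PC3 and 5 higher (COL3A1, COL6A1, FBN1, SPARC and TNC) and 6 lower in MG63. COL4A1, of basement membrane collagen, fell in MG63 from 11.1 ± 0.0598 to 4.91 ± 0.290 FPKM (log2 -1.16). In PC3, COL4A1 was below the level set for naming genes, at 3.80 and 4.17 FPKM in siControl and 0.694 and 0.857 after siLARP4B. COL1A1 is also among the osteoblast markers whose sum moved with siLARP4A.

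All 18 transcription factors known to act on MMP promoters were tested. After siLARP4A 6 were higher and 2 lower (FOSL1 and FOSL2) in PC3, and 6 higher and 1 lower (ETV1) in MG63. After siLARP4B 1 was higher (JUND) and 5 lower (ETS1, ETV1, FOSL1, FOSL2 and NFKB1) in PC3, and 2 higher (ETV4 and ETV5) and 9 lower in MG63. JUN, a subunit of AP-1, rose in PC3 siLARP4A (log2 0.50, adjusted p = 1.0e-07), and JUNB rose in MG63 siLARP4A (log2 0.71) and fell in MG63 siLARP4B (log2 -0.40). ETS1 rose in PC3 siLARP4A (log2 0.47) and fell after siLARP4B in PC3 (log2 -0.71) and MG63 (log2 -0.62).

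**Figure D4:**
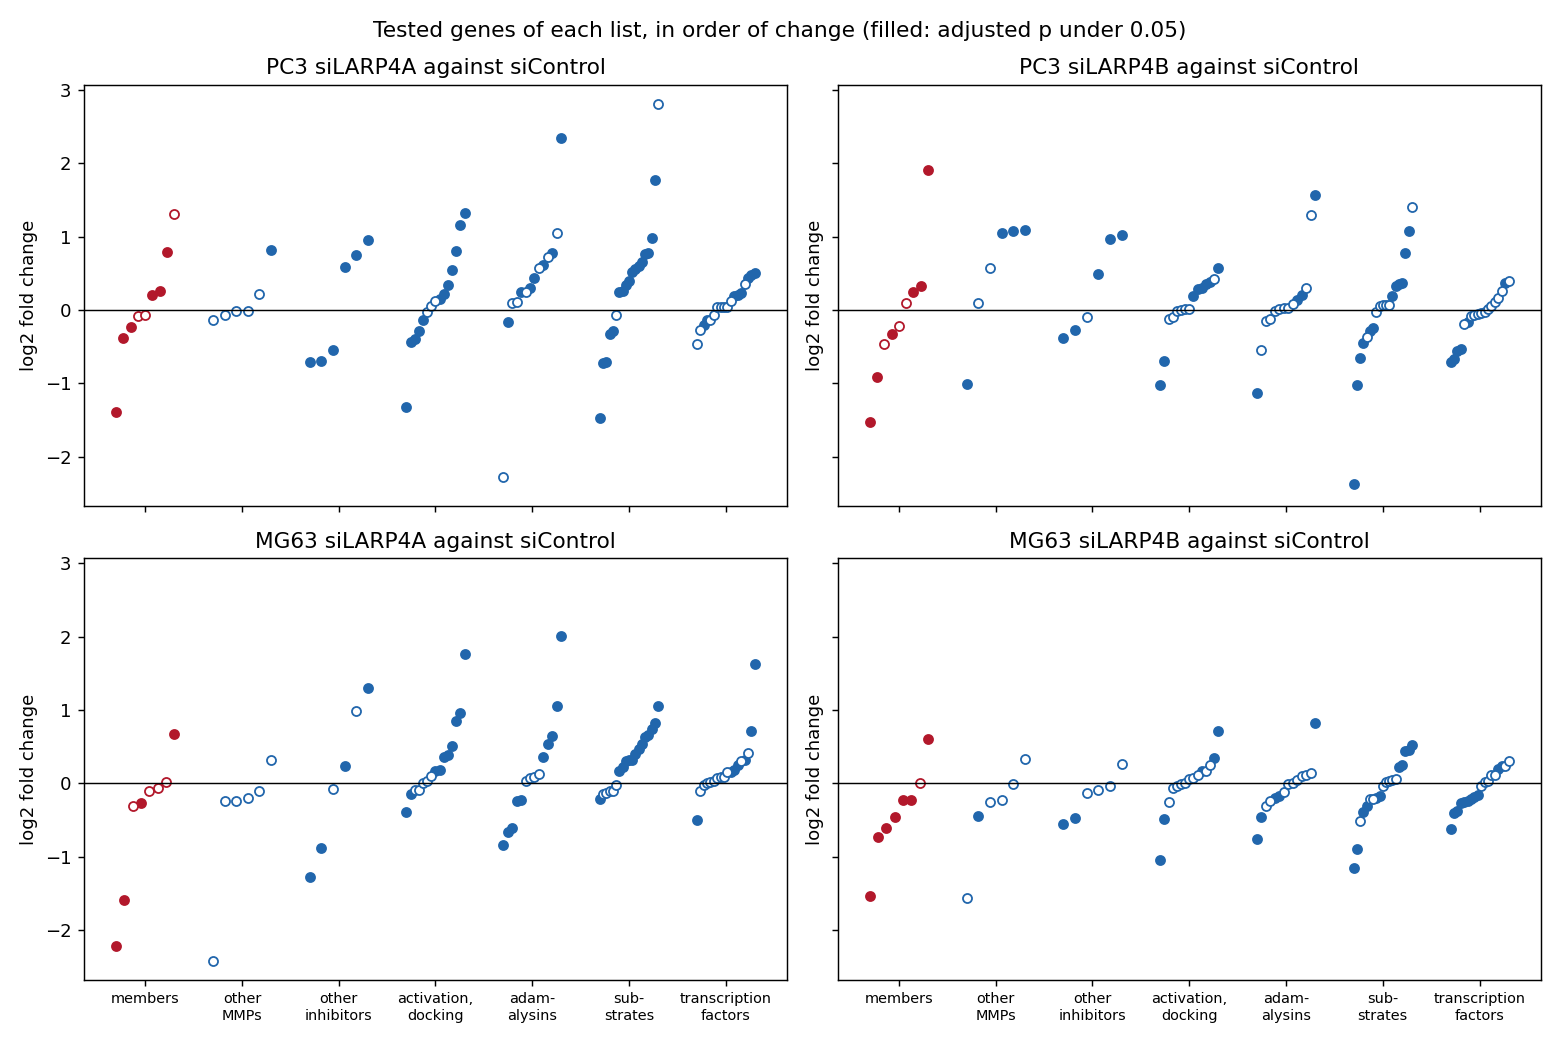
Log2 fold change against siControl of the 9 genes (red) and of every tested gene of the 6 pathway lists (blue), 1 panel per comparison. Points are ordered within each list and filled where the edgeR adjusted p was under 0.05. MMP13 is left out of the MG63 panels because it had 0 to 3 fragments per library there. After siLARP4A most substrates lie above 0 in both lines, and after siLARP4B in MG63 6 red points are filled and below 0.

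Genes whose log2 levels followed a member most closely over the 6 libraries of a line were looked up for members with a mean of at least 5 FPKM and a log2 range of at least 1. This gave MMP1 in PC3, and MMP1 and MMP3 in MG63. In PC3, among 818 genes compared, HLTF (Pearson r 0.986), ANGPTL4 (0.984) and HMMR (0.983) were nearest to MMP1. In MG63, among 343 genes, AIF1L (0.986), GDF6 (0.983) and SMAD5 (0.981) were nearest to MMP1, and UNG (0.991), BLOC1S6 (0.986) and EDEM3 (0.980) were nearest to MMP3. The 6 libraries of a line are 3 groups of 2, so these values mostly describe the order of the group means.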

How the data were processed

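Poly(A) RNA of 12 libraries was measured. The authors deposited, per library, fragment counts, FPM and FPKM for each annotated transcript model. Per the file headers, the deposited count is fragments per model, FPM (listed as another unit) is that count scaled to the library total, and FPKM is FPM per kilobase of model. The submitters' processing notes name FastQC, HISAT2, featureCounts, edgeR and the build hg38, and their settings, versions and use of strand are not given in the sources used here. PC3 siControl replicate 2 also has a deduplicated table, used only as an alternative.

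For each symbol on chromosomes 1 to 22, X and Y and the mitochondrial genome, the transcript model with the largest summed count was taken. The 1814 symbols with models at several loci were left out, among them MMP11, MMP28, ADAM9, ADAMTS12 and the leukocyte marker PTPRC of the lists here. The test was edgeR's quasi-likelihood F-test on counts (edgeR 4.0.16, R 4.3.3; two-sided, TMM scaling, filterByExpr), fitted over the 12 libraries together with group as the only term, with Benjamini-Hochberg adjustment over 15683 genes and a threshold of 0.05. Intervals of log2 changes are at the 95% level. The biological coefficient of variation was 4.22% and the prior degrees of freedom 15.4, so with 2 libraries a group the spread is borrowed largely from other genes. The fit was also run on simulated counts that gave every gene the same spread, so that run does not measure the error rate in these data. Alternatives were DESeq2 1.42.0, its size factors, no expression filter, the longest model per gene, only the groups compared, the deduplicated table, the replicate number as a block, and each library left out. Library totals were 16950119 to 24864977 fragments, and fragments may include amplification copies, so counting intervals cover counting error only.

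Named list genes are, per list and comparison, at most 3 called genes with the largest absolute log2 change and a mean of at least 5 FPKM in either group. The 9 genes, the lists and the tests were chosen with earlier results of these data known. Some genes of the lists are counted but not reported by name here.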

Additional observations from a re-analysis of the deposited data

Results flagged for a closer look

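In 9 cases the change of a gene against siControl differed between PC3 and MG63 by the interaction term of the edgeR quasi-likelihood fit. The values are the log2 change in PC3 minus that in MG63, and no explanation was tested.

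After siLARP4A, MMP1 differed by 1.22 (SE 0.15, adjusted p = 1.4e-05), with the larger fall in MG63. MMP3 differed by 2.14 (SE 0.43, adjusted p = 0.0021), with 8 to 11 fragments per PC3 library behind the PC3 side. MMP16 differed by 0.56 (SE 0.16, adjusted p = 0.029), a call that was lost in 8 of 15 alternatives (0.41 to 0.68, adjusted p 0.0027 to 0.14), namely DESeq2, the deduplicated table and the left-out PC3 siControl 1, PC3 siLARP4A 1 and each of the 4 MG63 libraries of the comparison.

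After siLARP4B, TIMP1 differed by 0.46 (SE 0.073, adjusted p = 6.7e-05), rising in PC3 and falling in MG63, under all 15 alternatives. TIMP2 differed by 0.27 (SE 0.063, adjusted p = 0.0024), lost with the deduplicated table only (0.23, adjusted p = 0.060). MMP14 differed by 0.32 (SE 0.081, adjusted p = 0.0054), lost in 4 of 15 alternatives (0.21 to 0.40, adjusted p 0.0014 to 0.076), namely without PC3 siControl replicate 2, PC3 siLARP4B replicate 1, MG63 siControl replicate 2 or MG63 siLARP4B replicate 2. MMP1 differed by -0.47 (SE 0.15, adjusted p = 0.021), lost in 4 of 15 (-0.60 to -0.39, adjusted p 0.0017 to 0.086), with DESeq2 and without PC3 siControl replicate 1, PC3 siLARP4B replicate 1 or MG63 siControl replicate 2. MMP3 differed by 1.32 (SE 0.46, adjusted p = 0.039), lost in 10 of 15 (1.151 to 1.501, adjusted p 0.037 to 0.18), among them without each of the 8 libraries of the comparison but MG63 siControl replicate 2. MMP2 differed by 1.90 (SE 0.68, adjusted p = 0.043), lost in 6 of 15 (1.29 to 3.06, adjusted p 0.022 to 0.23), 5 of them with a library left out, and lowest without PC3 siControl replicate 1, with 1 to 13 fragments per PC3 library.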

How the results depend on the processing

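Of 928 values of the 9 genes recomputed under the alternatives, 852 kept direction and side of the threshold, 42 lost the call, 6 gained it and 28 changed sign, the last all in results that were not called. Of the 23 calls against siControl, 20 held under every alternative run. The exceptions were MMP1 and MMP16 after siLARP4A in PC3 and MMP2 after siLARP4B in PC3. Counts of called members stayed within 1.5 times except for the siLARP4B difference between the lines, which was 6 with all libraries and 2 to 5 with a library left out. The cause was not tested. Another scaling moved the median of all genes by at most 0.025 (log2).

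With the replicate block, that is with the replicate number as a term, the counts were 6 and 6 in PC3 and 4 and 7 in MG63 for siLARP4A and siLARP4B against siControl, and no call on the 9 genes changed. Deviations of same-numbered libraries correlated at -0.027 to 0.049, so no large shared shift was seen. Counting error is part of each deviation, so these values cannot decide whether the numbers pair the samples.

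In the following results the sign changed with a library left out, and the ranges are of the log2 values over all alternatives run. MMP1 between the lines in siControl ran from -0.14 to 0.029. MMP2 ran from -0.32 to 2.48 (PC3 siLARP4A), -0.097 to 0.0017 (MG63 siLARP4A), -0.092 to 0.10 (MG63 siLARP4B), -2.22 to 0.018 and -0.15 to 0.043 (siLARP4A against siLARP4B in PC3 and MG63) and -0.27 to 2.54 (siLARP4A, between lines). MMP3 in PC3 ran from -0.33 to 0.19 (siLARP4A) and -0.11 to 0.41 (between siRNAs). MMP13 ran from -0.018 to 0.27 (between siRNAs in PC3) and -0.57 to 2.80 (siLARP4A, between lines), MMP14 in PC3 siLARP4B from -0.0065 to 0.18, and MMP16 between siRNAs in PC3 from -0.22 to 0.048. For the siLARP4A difference between lines, TIMP1 ran from -0.039 to 0.11 and was -0.014 with no expression filter, and TIMP3 ran from -0.10 to 0.073 and was -0.018 with no filter and -0.082 with the deduplicated table.

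Depth limits MMP2, MMP3 and TIMP3 in PC3 and MMP13 in MG63, each at 0 to 22 fragments per library.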
